A study of Mus musculus with 18 samples.

Results

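The 9 genes described here are the injury cytokines Il6, Lif, Csf1, Ccl2, Il1b and Cxcl12 and 3 genes of the gp130 receptor pathway, Il6st, Osmr and Socs3. They were chosen by symbol, all 9 were found among the 17198 genes of the deposited table, and all 9 passed the filter on low values, which removed 0 genes. The samples were RNA sequencing libraries of mouse sensory neurons, taken from dorsal root ganglia (DRG) beside the spinal cord and cultured for 12, 24 or 48 h. One genotype was wild type (WT). The other, written Dynlrb1(tm1a/+) and called HET here, carried 1 copy of the tm1a allele of Dynlrb1, a targeted insertion in the gene for a light chain of the microtubule motor dynein. There were 3 biological repeats for every genotype at every time, 18 cultures in all, numbered 1, 2 and 3 for 48 h and 1, 2 and 5 for the earlier times. The age, sex and strain of the mice, and whether a culture pooled animals, are not given in the sources used here. No uninjured ganglion or freshly isolated neuron is among the samples, and 12 h in culture is the earliest point.

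Cytokines of the interleukin-6 family share 1 signalling receptor chain, gp130, the product of Il6st. Il6 binds through its own receptor Il6ra, Lif through Lifr, and oncostatin M through Osmr, and each complex activates Janus kinases (JAKs), which phosphorylate the transcription factor STAT3. STAT3 induces Socs3, whose protein binds gp130 and the kinases and shuts the signal down. When a sensory axon is cut, the neurons and the cells around them make several of these factors, and dissociating ganglia for culture cuts the axons. Csf1 from injured sensory neurons acts on macrophages and microglia, Ccl2 draws monocytes through the receptor Ccr2, Il1b is a cytokine of myeloid cells, and Cxcl12 guides cells and axons through Cxcr4.

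Values below are the authors' normalized counts, in which every culture sums to nearly the same total, from 41509705 to 41509874. Sequencing depth per culture is unknown, so precision rests on the spread between cultures. Changes are log2 fold changes of the value plus 1, tested for all genes with limma, and an adjusted p under 0.05 (Benjamini-Hochberg over all genes of a comparison) is called passing. Dynlrb1, the targeted gene, averaged 3346 ± 123 (SD, n = 3) normalized counts at 48 h in HET against 6015 ± 348 (SD, n = 3) in WT, and the genotypes did not overlap at any time. All 8 sensory neuron markers were measured, with summed normalized counts from 394763 to 589325 over the 18 cultures. Markers of other cell types had values too. The summed counts were 17993 to 52692 for 8 markers of Schwann and satellite glia, 4878 to 27597 for 6 of fibroblasts, 5508 to 13408 for 6 of endothelial cells, 1734 to 6215 for 9 measured of 10 of macrophages and 90.04 to 6213 for 7 of neutrophils. The deposited values hold no 0 for any gene, so a value above 0 does not by itself show that a marker was detected. The neutrophil marker Elane averaged 2.98 in WT at 48 h. In such mixed cultures, fewer cells of a type and less RNA per cell cannot be told apart.

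The 9 genes covered a wide range of levels. In FPKM, the deposited unit per length of gene, the gp130 receptor Il6st was highest, with a mean over the 18 cultures of 136 (from 100.3 to 174), followed by Csf1 with 44.5 (from 15.3 to 98.4). Ccl2 had 28.9 (from 13.3 to 64.1), Cxcl12 28.8 (from 13.1 to 49.3), Socs3 25.2 (from 17.97 to 38.1) and Osmr 21.4 (from 15.97 to 30.3). The ranges of these 4 genes overlapped each other and that of Csf1, so the order among them and Csf1 is not settled. Among the ligands of gp130, Lif had an FPKM of 6.30 (from 3.46 to 13.03) and Il6 one of 2.05 (from 0.454 to 4.35). Il1b was lowest, at 0.417 (from 0.0607 to 0.879), and its normalized count was between 3.36 and 48.4, a level at which the pseudocount of 1 reduces the fold change.

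**Figure D1:**
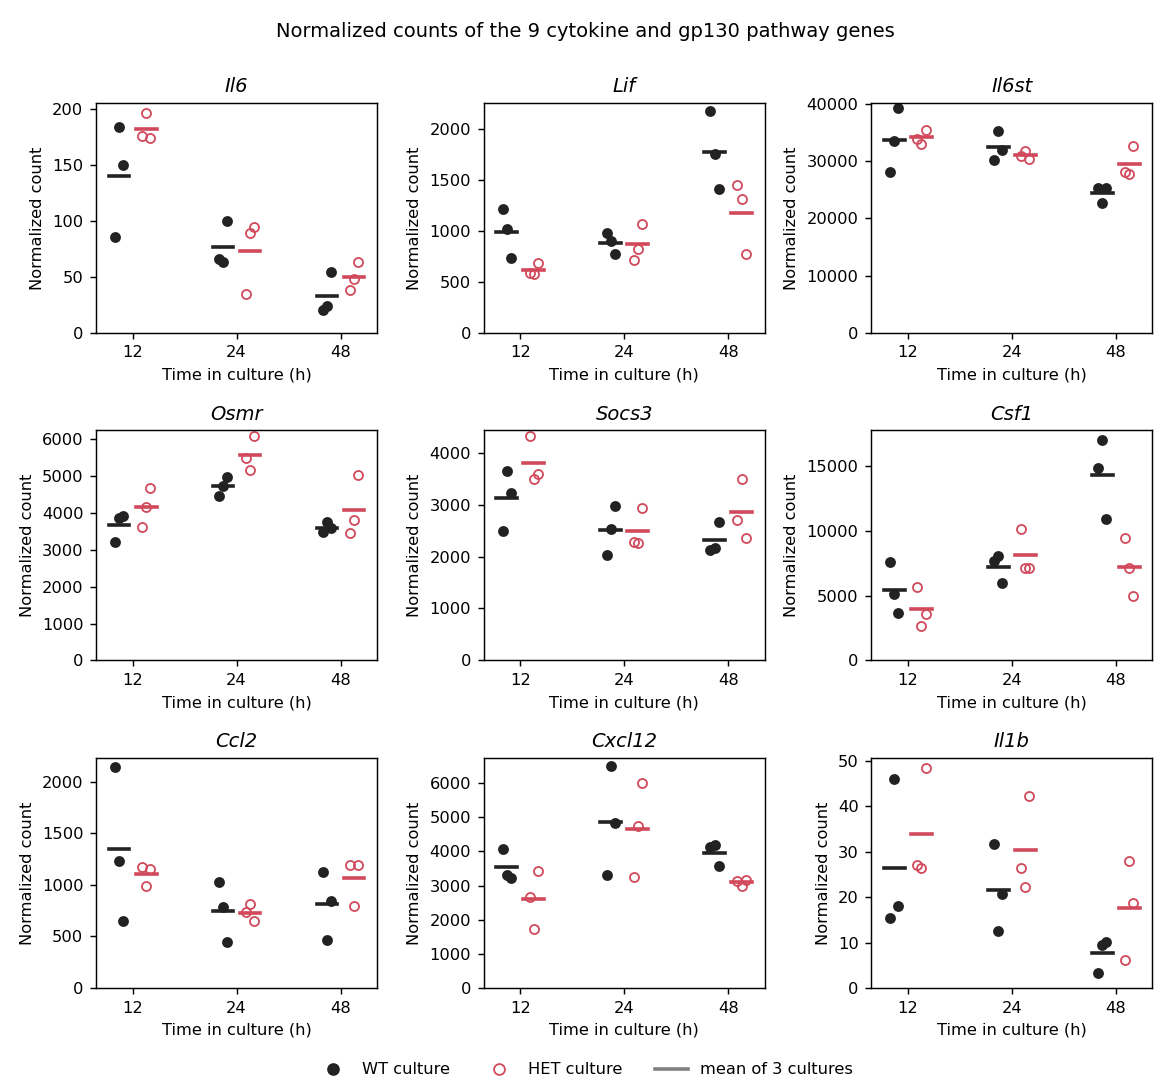
Normalized counts (linear axes from 0) of the 9 genes by time in culture (h), with filled points for WT cultures, open points for HET cultures and bars for the mean of 3 cultures. Il6 and Il1b had their lowest means at 48 h in both genotypes, Lif had its highest, and Csf1 at 48 h was at 14876, 17064 and 10974 in WT and at 9454, 7154 and 5021 in HET.

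Between 12 and 48 h in WT, 5 of the 9 genes passed, Csf1 and Lif higher and Il6, Il1b and Il6st lower. For 5 of the 9 the groups did not overlap, beside 55.3% of all genes. Of all genes, 47.1% passed in that comparison, 30.0% higher and 17.1% lower, so a count of 5 in 9 is near the background. In HET over the same interval Lif rose and Il6 fell, 2 of 9 genes, beside 14.2% of all genes (10.6% higher and 3.62% lower), and 4 of 9 had groups without overlap, beside 29.7%. Between 12 and 24 h in HET, 5 genes passed, Csf1, Cxcl12 and Osmr higher and Il6 and Socs3 lower, beside 18.9% of all genes (13.1% higher and 5.76% lower). There 7 of 9 had groups without overlap, beside 38.4% of all genes. In WT over that first interval 0 of 9 passed in limma, beside 3.62% of all genes. Osmr was the 1 gene without overlap there (26.9% of all genes) and the 1 that had an unadjusted p under 0.05. No edgeR or DESeq2 test was run, as the values are not counts. In the authors' deposited table none of the 9 had an adjusted p under 0.05 for 24 h against 12 h in WT, the lowest being 0.106 for Osmr. The median log2 change of all genes was 0.11 between 12 and 48 h in WT and 0.10 in HET, and the medians of the 9 genes were -0.42 and -0.077.

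**Figure D2:**
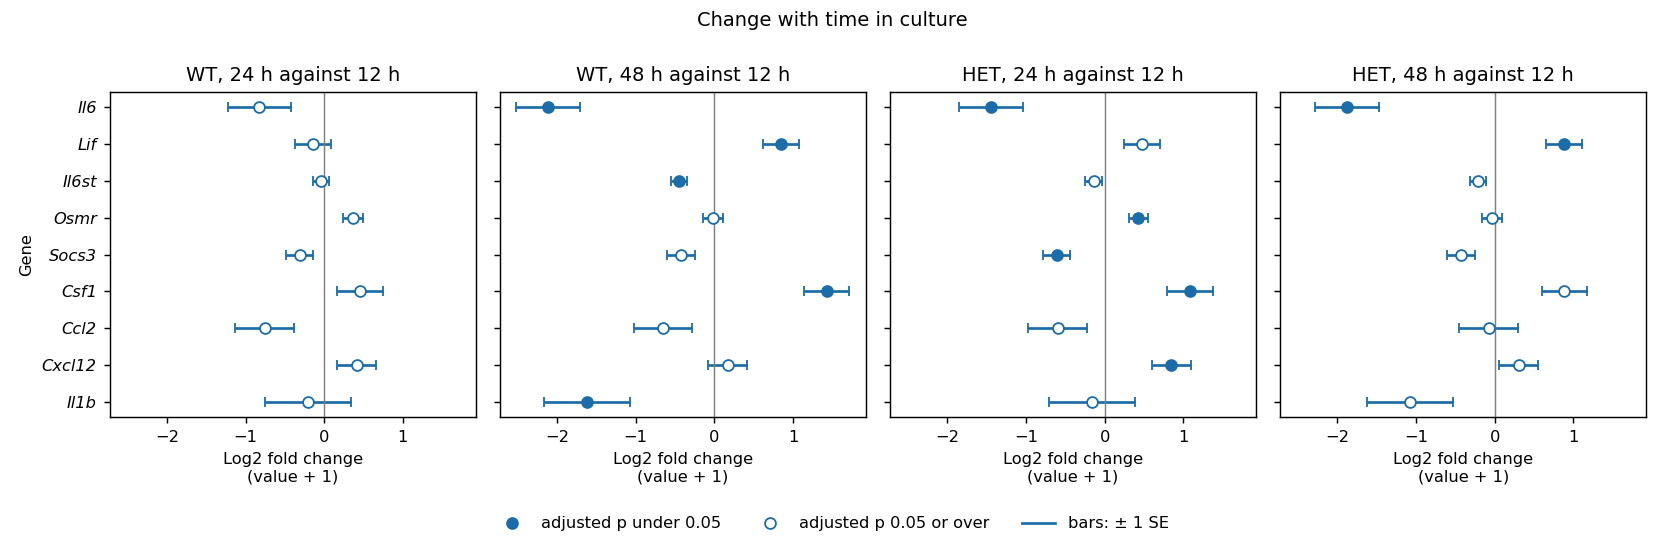
Log2 fold change (value + 1) of each gene against 12 h, with bars of 1 SE from limma, in WT and HET at 24 and 48 h; filled points passed an adjusted p of 0.05. Il6 was the lowest and Csf1 or Lif the highest of the 9 in both 48 h comparisons, and 0 of 9 genes passed for WT at 24 h.

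Il6 fell during culture in both genotypes. Positions are on GRCm38 (mm10) from the GENCODE annotation, and each spans the whole gene with its exons and introns. Il6 (ENSMUSG00000025746, chr5:30013114-30019981, plus strand) encodes the cytokine interleukin-6. Its normalized counts in WT were 85.8, 184 and 149.7 at 12 h (replicates 1, 2 and 5), 65.7, 63.6 and 100.1 at 24 h and 20.5, 23.97 and 54.7 at 48 h. In HET they were 176, 196 and 174 at 12 h, 34.3, 89.2 and 94.6 at 24 h and 37.9, 48.3 and 63.1 at 48 h. All 3 cultures at 48 h were below all 3 at 12 h in each genotype, and in HET those at 24 h were as well, while WT replicate 1 at 12 h lay within the 24 h range. The log2 fold change from 12 to 48 h was -2.11 (standard error 0.40, limma's adjusted p 0.000553) in WT and -1.88 (standard error 0.40, limma's adjusted p 0.0150) in HET. From 12 to 24 h it was -1.44 (standard error 0.40, limma's adjusted p 0.0203) in HET and -0.82 (standard error 0.40, limma's adjusted p 0.250) in WT, the latter not passing. The HET call at 24 h was lost without HET 12 h replicate 2 (limma adjusted p 0.0827) or HET 24 h replicate 1 (log2 fold change -0.98, adjusted p 0.105). The HET call at 48 h was lost without HET 12 h replicate 2, HET 48 h replicate 1 or HET 48 h replicate 2 (adjusted p 0.0699, 0.0884 and 0.0656). The log2 fold change in those 3 fits was -1.82, -1.70 and -1.87, and in each of them 0 of all genes passed. Beside the fall of Il6, the summed markers of Schwann and satellite glia were 36774 to 52044 in WT at 12 h and 17993 to 21449 at 48 h. In HET they were 36979 to 52692 and 18882 to 25809.8. Of the 8 markers 1 rose and 4 fell in WT, and 3 fell in HET, where 17.1% and 3.62% of all genes fell. Glia were not the only cell type with falling markers. Of 7 neutrophil markers 5 fell in WT and 4 in HET, and of 6 endothelial markers 3 and 1. The part of these cell types in the result was not tested.

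Lif, the other gp130 ligand of the set, moved in the opposite direction late in culture. Lif (ENSMUSG00000034394, chr11:4257557-4272514, plus strand) encodes leukaemia inhibitory factor. WT cultures had normalized counts of 1216, 1018 and 734 at 12 h, 973, 895 and 771 at 24 h and 2172, 1749 and 1405 at 48 h. HET cultures had 589, 576 and 682 at 12 h, 709, 824 and 1068 at 24 h and 1446, 1307 and 771 at 48 h. Every 48 h culture was above every 12 h culture of its genotype, and in WT the values at 24 h overlapped those at 12 h. The log2 fold change from 12 to 48 h was 0.85 (standard error 0.23, limma's adjusted p 0.00617) in WT and 0.88 (standard error 0.23, limma's adjusted p 0.0232) in HET. At 24 h it was -0.14 (standard error 0.23, limma's adjusted p 0.764) in WT and 0.48 (standard error 0.23, limma's adjusted p 0.158) in HET, and neither passed. The WT call held without any 1 culture, and the HET call was lost without HET 12 h replicate 1 or 2 (limma adjusted p 0.0596 and 0.0934) or HET 48 h replicate 1 or 2 (0.127 and 0.107). The log2 fold change in those fits lay between 0.71 and 0.85. Except without HET 12 h replicate 1, 0 of all genes passed in them. Fibroblast markers moved with the rise of Lif, with sums of 4878 to 11608 in WT at 12 h, 17195 to 27597 in WT at 48 h, 5525 to 9083 in HET at 12 h and 12669.6 to 26305 in HET at 48 h. Of the 6 markers, 4 rose in WT and 3 in HET, beside 30.0% and 10.6% of all genes. Their part in the result was not tested.

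The shared receptor chain was abundant throughout and fell modestly in WT. Il6st (ENSMUSG00000021756, chr13:112464070-112510086, plus strand) had normalized counts of 28088, 33456 and 39371 at 12 h in WT, 30185, 35216 and 32044 at 24 h and 25360.4, 22692 and 25318 at 48 h. In HET the counts were 33954, 33044 and 35504, then 30992, 31735 and 30353, then 28082, 27844 and 32672 at the 3 times. The 48 h cultures of each genotype lay below its 12 h cultures. The log2 fold change from 12 to 48 h was -0.45 (standard error 0.11, limma's adjusted p 0.00256) in WT and -0.21 (standard error 0.11, limma's adjusted p 0.174) in HET, the latter not passing. The authors also deposited a further set of signal columns, called the plain adjusted columns here. On the log2 scale those columns span 15 of the 17 dimensions possible for 18 samples. The dimensions of the normalized counts were not measured. The 2 directions missing from the plain adjusted columns can be added to the fit as covariates, as can the replicate number as a block. With both (the directions were added after the data were seen), the WT value was -0.27 and no longer passed (limma adjusted p 0.0632), while the HET value was -0.38 and passed (0.0358). The block also drops the 48 h cultures numbered 3 from this comparison, as no 12 h culture has that number.

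Osmr, the receptor chain that pairs with gp130 for oncostatin M, had its highest group mean at 24 h in both genotypes. Osmr (ENSMUSG00000022146, chr15:6813577-6874969, minus strand) had WT normalized counts of 3205, 3846 and 3912 at 12 h, 4457, 4712 and 4967 at 24 h and 3468, 3743 and 3586 at 48 h. In HET it had 3619, 4154 and 4665 at 12 h, 5474, 5161 and 6084 at 24 h and 3444, 3797 and 5009 at 48 h. All 24 h cultures were above all 12 h cultures of the same genotype, and the values at 48 h overlapped those at 12 h. From 12 to 24 h the log2 fold change was 0.43 (standard error 0.13, limma's adjusted p 0.0250) in HET and 0.37 (standard error 0.13, limma's adjusted p 0.0980) in WT, the latter not passing. The WT value passed without HET 48 h replicate 3 (0.0399) and, at 0.56, with the 2 missing directions as covariates (limma adjusted p 0.0144). The HET call was lost on the plain adjusted columns, the authors' other scaling (limma adjusted p 0.0569). Leaving out HET 12 h replicate 1 or 2, or HET 24 h replicate 1 or 5, also ended it (adjusted p 0.103, 0.0805, 0.0584 and 0.105). At 48 h the difference from 12 h was -0.017 in WT and -0.033 in HET on the log2 scale, neither passing.

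Socs3, the feedback inhibitor of gp130, was highest at 12 h in both genotypes by group mean. Socs3 (ENSMUSG00000053113, chr11:117966079-117970047, minus strand) had WT normalized counts of 2495, 3653 and 3220.3 at 12 h, 2032, 2533 and 2978 at 24 h and 2119, 2162 and 2662 at 48 h. The HET counts were 4312, 3493 and 3586 at 12 h, 2288, 2262 and 2938 at 24 h and 2709.9, 3483 and 2354 at 48 h. In HET each later culture was below every 12 h culture, whereas the WT ranges overlapped. From 12 to 24 h the gene fell in HET, with a log2 fold change of -0.61 (standard error 0.17, limma's adjusted p 0.0227). That call was lost without HET 12 h replicate 1 or 2 or HET 24 h replicate 1 or 2 (adjusted p 0.0833, 0.0557, 0.0797 and 0.0698). From 12 to 48 h it was -0.42 (standard error 0.17, limma's adjusted p 0.0559) in WT and -0.43 (standard error 0.17, limma's adjusted p 0.103) in HET, and neither passed. The WT value passed on the plain adjusted columns (-0.53, limma adjusted p 0.0186). It also passed with 6 of the 18 cultures left out singly: WT 12 h replicate 1 (0.0181), WT 24 h replicates 1 and 5 (0.0469 and 0.0488), WT 48 h replicate 3 (0.0353) and HET 48 h replicates 2 and 3 (0.0430 and 0.0442). In the authors' deposited table its adjusted p was 0.0347.

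Csf1 had the largest rise of the 9 genes in WT. Csf1 (ENSMUSG00000014599, chr3:107741048-107760469, minus strand) encodes colony-stimulating factor 1. WT cultures had normalized counts of 7575, 5155 and 3674 at 12 h, 7663, 8097 and 5981 at 24 h and 14876, 17064 and 10974 at 48 h. HET cultures had 5656, 2647 and 3601 at 12 h, 10126, 7145 and 7124 at 24 h and 9454, 7154 and 5021 at 48 h. The 3 WT cultures at 48 h were above every other culture of either genotype, and in HET the 24 h cultures were above the 12 h ones. From 12 to 48 h the log2 fold change was 1.43 (standard error 0.29, limma's adjusted p 0.000880) in WT, a 2.69-fold rise, and 0.88 (standard error 0.29, limma's adjusted p 0.0503) in HET, just outside the threshold. From 12 to 24 h it was 1.09 (standard error 0.29, limma's adjusted p 0.0162) in HET and 0.46 (standard error 0.29, limma's adjusted p 0.387) in WT, the latter not passing. The HET call at 24 h was lost without HET 12 h replicate 2 or HET 24 h replicate 1 (adjusted p 0.106 and 0.0719). The HET value at 48 h passed without any 1 of WT 12 h replicates 1 and 5, WT 48 h replicate 3, HET 12 h replicate 1, HET 24 h replicate 1 and HET 48 h replicate 3 (adjusted p from 0.0118 to 0.0490), and the authors' deposited table gave 0.0161. Markers of 2 other cell types are set beside Csf1. From 12 to 48 h in WT, 4 of 6 fibroblast markers rose and 0 fell. Their median was 1.48, and the sums are given above for Lif. Of 9 macrophage markers 3 rose and 1 fell, near the shares of all genes, 30.0% higher and 17.1% lower. Their median was 0.76, with sums of 1734 to 3410.1 at 12 h and 4068 to 6215 at 48 h. One of the 9 is Csf1r, the receptor of Csf1, at 0.14 in WT and 0.12 in HET, neither passing. In HET 3 fibroblast markers and 1 macrophage marker rose, beside 10.6% of all genes, with medians of 1.18 and 0.36. Their part in the result was not tested.

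The promoters of Il6 and Csf1 are shown because these genes had the largest fall and the largest rise of the 9 in WT, and both hold a match to the NF-kB motif (GGG, any 3 bases, then TTCC), read on either strand. The sequences are the 250 bases before the RefSeq transcription start on GRCm38.p6, the same assembly as the submitters' mm10, written 5′ to 3′ on the gene's strand with motif matches in capitals. Il6 lies on the plus strand at chr5:30012864-30013113, and its capitals mark the AP-1 motif TGANTCA and then NF-kB. Csf1 lies on the minus strand at chr3:107760470-107760719, and its capitals mark the NF-kB motif on the opposite strand.
Il6: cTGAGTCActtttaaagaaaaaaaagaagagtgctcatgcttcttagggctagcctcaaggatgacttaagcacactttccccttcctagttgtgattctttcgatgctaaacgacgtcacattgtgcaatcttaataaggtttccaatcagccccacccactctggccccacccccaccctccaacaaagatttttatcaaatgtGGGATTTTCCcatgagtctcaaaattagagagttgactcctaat
Csf1: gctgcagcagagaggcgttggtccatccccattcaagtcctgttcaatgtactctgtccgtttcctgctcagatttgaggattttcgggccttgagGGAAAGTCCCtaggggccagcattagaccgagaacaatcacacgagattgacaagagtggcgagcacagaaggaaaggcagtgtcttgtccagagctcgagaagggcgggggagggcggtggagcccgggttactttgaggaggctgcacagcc

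Of the 9 genes, 8 had a promoter in the RefSeq table, and these windows of 300 bases (250 before and 50 after the start) were searched on both strands. The NF-kB motif began 44 bases before the start in Il6 and 154 before it in Csf1, and 5.56% of 32851 promoter windows hold it. The AP-1 motif occurred in 3 windows (Il6, Lif and Osmr) beside 7.81% of all windows. The STAT motif TTCNNNGAA, the kind of site STAT3 binds, occurred in Socs3 alone, as TTCTTAGAA beginning 154 bases before the start, beside 8.30% of all windows. The cyclic AMP response element TGACGTCA occurred in 0 of the 8, beside 1.79% of all windows. A match of letters is a description of these windows, not evidence of binding.

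Neither chemokine passed between 12 and 48 h. Ccl2 (ENSMUSG00000035385, chr11:82035571-82037453, plus strand), a chemokine for monocytes, had WT normalized counts of 2146, 1233 and 655 at 12 h, 1028, 784 and 445 at 24 h and 1129, 467 and 840.3 at 48 h, and the 3 groups overlapped. In HET it had 1178, 988 and 1153 at 12 h, 739, 811 and 648 at 24 h and 1194, 800.2 and 1196 at 48 h, and only the 24 h group lay wholly below the 12 h group. No comparison passed for Ccl2 in the fit without a block. The log2 fold change from 12 to 24 h was -0.76 (standard error 0.37, limma's adjusted p 0.252) in WT and -0.60 (standard error 0.37, limma's adjusted p 0.280) in HET, and from 12 to 48 h -0.66 (standard error 0.37, limma's adjusted p 0.157) and -0.077 (standard error 0.37, limma's adjusted p 0.905). Without WT 12 h replicate 5 the WT value at 48 h was -1.09 and passed (adjusted p 0.0215).

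Cxcl12 (ENSMUSG00000061353, chr6:117168535-117181367, plus strand), the ligand of Cxcr4, had its highest group means at 24 h. The WT normalized counts were 4076, 3304 and 3229.7 at 12 h, 3302, 6494 and 4819 at 24 h and 4139.7, 4185 and 3562 at 48 h. The HET counts were 2661, 1727 and 3426 at 12 h, 3245, 4739 and 5999 at 24 h and 3143, 3000.2 and 3166 at 48 h. The 12 and 24 h ranges overlapped in both genotypes. The rise to 24 h passed in HET with a log2 fold change of 0.85 (standard error 0.25, limma's adjusted p 0.0249), and in WT it was 0.42 (standard error 0.25, limma's adjusted p 0.356). The HET call was lost without HET 12 h replicate 2 or HET 24 h replicates 2 or 5 (adjusted p 0.156, 0.0602 and 0.123). At 48 h the differences from 12 h were 0.17 in WT and 0.31 in HET, neither passing.

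Il1b (ENSMUSG00000027398, chr2:129364570-129371139, minus strand), the inflammatory cytokine interleukin-1 beta, was scarce in all cultures. Its WT normalized counts were 15.4, 45.9 and 18.1 at 12 h, 31.8, 12.6 and 20.7 at 24 h and 3.36, 9.37 and 10.2 at 48 h. Its HET counts were 27.1, 26.5 and 48.4 at 12 h, 26.4, 22.3 and 42.3 at 24 h and 6.10, 28.02 and 18.7 at 48 h. The 48 h group lay below the 12 h group in WT, and the groups overlapped in HET. From 12 to 48 h the log2 fold change was -1.62 (standard error 0.55, limma's adjusted p 0.0222) in WT and -1.08 (standard error 0.55, limma's adjusted p 0.185) in HET, the latter not passing. The WT call was lost without WT 12 h replicate 2 (-1.15, adjusted p 0.121) or WT 48 h replicate 1 (-1.19, adjusted p 0.112). Neutrophil markers, which belong to cells that make Il1b, had sums of 181 to 5895 in WT at 12 h and 90.04 to 137 at 48 h, with 5 of 7 lower. In HET the sums were 2391 to 6213 and 122 to 1716, with 4 of 7 lower. Of 9 macrophage markers measured, 3 rose and 1 fell in WT, with the sums given above for Csf1. In HET 1 rose and 0 fell, with sums of 2001 to 2812 at 12 h and 2695 to 3905 at 48 h. Of all genes, 30.0% rose and 17.1% fell in WT, and 10.6% rose and 3.62% fell in HET, so the macrophage counts are near the background. The part of either cell type in the result was not tested.

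Between genotypes at 48 h, Csf1, Lif and Il6st had the lowest unadjusted p of the set in limma (0.00280, 0.0147 and 0.0206). Csf1 and Lif were lower in HET and Il6st higher, and the Lif values of the genotypes overlapped. Without a replicate block, 0 of 9 genes passed in limma at 12 h, 24 h, 48 h or in the average of the 3 times, and 1, 0, 3 and 3 of them had an unadjusted p under 0.05. Among all genes 0.00581% passed at 12 h, 0.00581% at 24 h, 0% at 48 h and 0.0174% in the average, and 1447, 198, 3782 and 2315 genes had an unadjusted p under 0.05. The groups did not overlap for 1 of 9 genes at 12 h (Lif, lower in HET), beside 15.1% of all genes. At 24 h the 1 gene was Osmr, higher in HET, beside 5.60%. At 48 h they were 3, Csf1 and Cxcl12 lower and Il6st higher in HET, beside 24.0% of all genes.

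At 48 h the Csf1 counts of 14876, 17064 and 10974 in WT stood against 9454, 7154 and 5021 in HET, a log2 fold change of -1.01 (standard error 0.29, limma's adjusted p 0.0714) or 0.496 of the WT level. The HET culture was lower than the WT culture of its number in 3 of 3 pairs for Csf1, Lif and Cxcl12, and higher in 3 of 3 for Il6, Il6st, Ccl2 and Il1b. Osmr and Socs3 were mixed. The share of all genes with 3 of 3 pairs in 1 direction was not computed, so these counts have no background beside them. Same-numbered cultures of the genotypes deviated together at 48 h, though the labels give only a number and the pairing was taken from these values. With the replicate number as a block the Csf1 difference passed, with an SE of 0.162 and a limma adjusted p of 0.00316. Lif was -0.62 (standard error 0.23, limma's adjusted p 0.130) without the block and passed with it (adjusted p 0.0473). In that fit 12.3% of all genes passed, with 7.29% of all genes lower in HET, and 2 of the 9 passed, Csf1 and Lif. In the authors' deposited table Csf1 had a log2 fold change of -0.99 with an adjusted p of 0.0112, and Lif one of -0.60 with 0.0835. Without the block, Csf1 passed when WT 48 h replicate 3 (0.0438) or HET 48 h replicate 1 (0.0419) was left out, while leaving out WT 48 h replicate 2 gave -0.87 (limma adjusted p 0.412). Lif was -0.35 without HET 48 h replicate 3, the HET culture with the lowest Lif and Csf1 at that time. Fibroblast marker sums at 48 h overlapped, at 17195 to 27597 in WT and 12669.6 to 26305 in HET, and macrophage sums, at 4068 to 6215 and 2695 to 3905, did not overlap. Both sums were lower in HET in 3 of 3 numbered pairs, the direction of Csf1 and Lif. Without the block 0 of 9 macrophage and 0 of 6 fibroblast markers passed, and 24.0% of single genes did not overlap. Neutrophil sums, at 90.04 to 137 in WT and 122 to 1716 in HET, were higher in HET in each numbered pair. Sensory neuron sums were too, and those of glia and endothelial cells were mixed. The part of any cell type in the differences was not tested.

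The remaining genes did not pass between genotypes at 48 h with or without the block. Il6st had a log2 fold change of 0.27 (standard error 0.11, limma's adjusted p 0.150), Il6 0.68 (standard error 0.40, limma's adjusted p 0.333) and Il1b 1.001 (standard error 0.55, limma's adjusted p 0.292). Socs3 was 0.29 (standard error 0.17, limma's adjusted p 0.344) and Osmr 0.16 (standard error 0.13, limma's adjusted p 0.467). Ccl2 was 0.46 (standard error 0.37, limma's adjusted p 0.498) and Cxcl12 -0.35 (standard error 0.25, limma's adjusted p 0.428). Each of these except Cxcl12 was higher in HET on average, and among these 7 genes Il6st and Cxcl12 were without overlap. At 12 h the largest differences were lower values in HET, of Lif at -0.66 (standard error 0.23, limma's adjusted p 0.577), Cxcl12 at -0.49 (standard error 0.25, limma's adjusted p 0.595) and Csf1 at -0.47 (standard error 0.29, limma's adjusted p 0.634). Il6 was 0.45, Il1b 0.46, Socs3 0.29, Osmr 0.18, Il6st 0.036 and Ccl2 -0.12 at that time. At 24 h the 9 log2 fold changes lay between -0.17 (Il6) and 0.51 (Il1b), with Osmr at 0.24. Averaged over the 3 times, the lowest unadjusted p among the 9 belonged to Lif (-0.44, standard error 0.13, limma's adjusted p 0.310), Osmr (0.19, standard error 0.073, limma's adjusted p 0.313) and Csf1 (-0.44, standard error 0.17, limma's adjusted p 0.313), none passing.

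**Figure D3:**
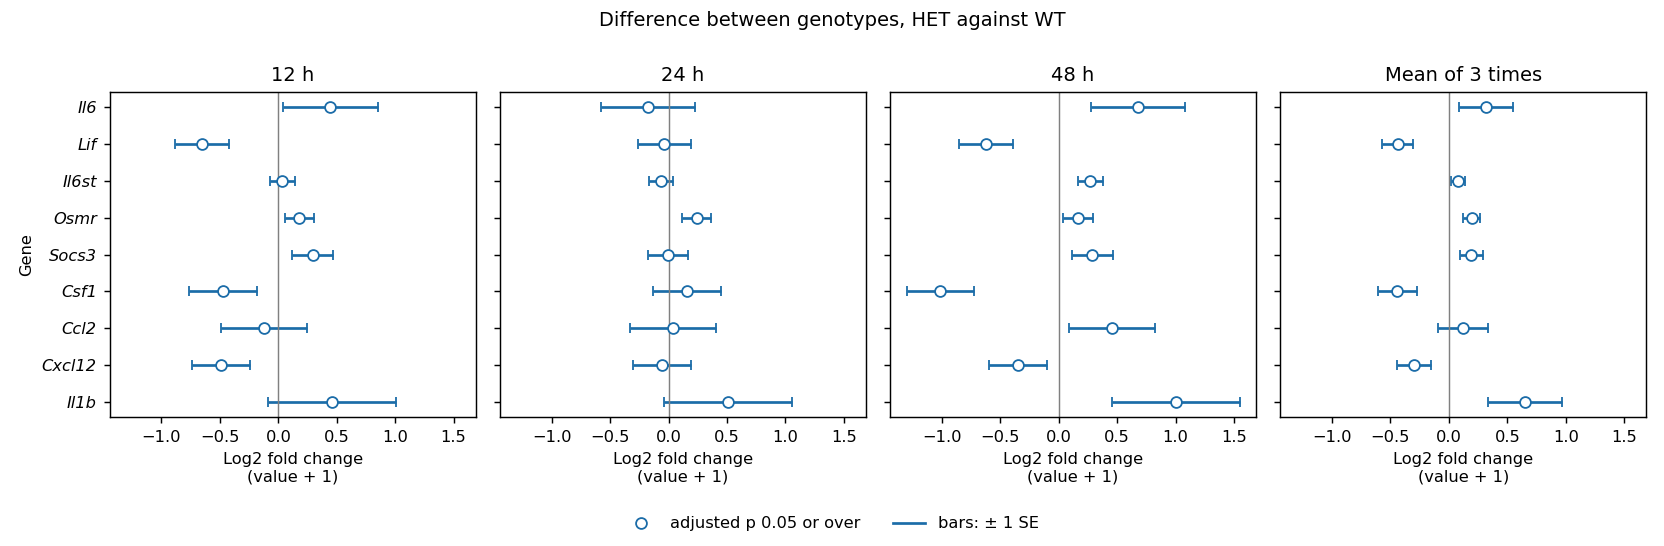
Log2 fold change (value + 1) of HET against WT for each gene at 12, 24 and 48 h and averaged over the times, with bars of 1 SE from limma without a replicate block; open points did not pass an adjusted p of 0.05, and none of the 9 did. Csf1 at 48 h was lowest at -1.01.

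The difference between genotypes in the change from 12 to 48 h was tested directly and passed for 0 of 9 genes in limma, with 0 of them at an unadjusted p under 0.05. Among all genes 0% passed and 1534 of 17198 had an unadjusted p under 0.05. For Csf1 the HET change minus the WT change was -0.54 (standard error 0.41, limma's adjusted p 0.655). For Lif it was 0.033 (standard error 0.32, limma's adjusted p 0.980) and for Il6 0.23 (standard error 0.57, limma's adjusted p 0.901), so the fall of Il6 and the rise of Lif were not shown to differ between genotypes. The WT and HET time comparisons use separate cultures, but the comparisons at 24 and 48 h within a genotype share the 12 h cultures.

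The genes of 6 further lists are counted next, and each count stands beside the shares of all genes that passed from 12 to 48 h, 30.0% higher and 17.1% lower in WT and 10.6% higher and 3.62% lower in HET. Other ligands of gp130 were led by Il11. Of 7 listed, 6 were measured, and between 12 and 48 h in WT 2 rose, 1 fell and 3 did not pass, with a median log2 change of 0.33 beside 0.11 for all genes. Il11, interleukin-11, averaged 188 ± 62.99 (SD, n = 3) in 12 h cultures against 2339 ± 1000.3 (SD, n = 3) in 48 h cultures, with a log2 fold change of 3.57 (standard error 0.44, limma's adjusted p 3.39e-05). Cntf, ciliary neurotrophic factor of Schwann cells, had 33.2 ± 10.9995 (SD, n = 3) in 12 h cultures against 13.8 ± 4.60 (SD, n = 3) in 48 h cultures, with a log2 fold change of -1.19 (standard error 0.38, limma's adjusted p 0.0157). In HET over the same interval 1 of the 6 rose, Il11 (2.47, standard error 0.44, limma's adjusted p 0.0121), and 0 fell. At 48 h Il11 was 907 ± 601 (SD, n = 3) in HET and its log2 fold change against WT was -1.52 (standard error 0.44, limma's adjusted p 0.0741), not passing.

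Of 5 co-receptors (Il6ra, Il11ra1, Lifr, Cntfr and Il27ra), 1 fell between 12 and 48 h in WT and 4 did not pass, with a median of 0.18. The 1 was Il6ra, the binding chain for interleukin-6, which had 167 ± 12.3 (SD, n = 3) in 12 h cultures against 85.1 ± 9.04 (SD, n = 3) in 48 h cultures, with a log2 fold change of -0.97 (standard error 0.25, limma's adjusted p 0.00416). Of 10 JAK-STAT transducers, 3 rose and 4 fell in WT (median 0.091), and 2 rose and 1 fell in HET. Stat5a, a transcription factor of the same family as STAT3, had 240.4 ± 29.6 (SD, n = 3) in 12 h cultures against 605 ± 109 (SD, n = 3) in 48 h cultures, with a log2 fold change of 1.32 (standard error 0.21, limma's adjusted p 0.000166). Gab1, a docking protein downstream of gp130, had 3779 ± 599 (SD, n = 3) in 12 h cultures against 1815 ± 336 (SD, n = 3) in 48 h cultures, with a log2 fold change of -1.06 (standard error 0.17, limma's adjusted p 0.000133), and Tyk2, a Janus kinase, had 477 ± 47.5 (SD, n = 3) in 12 h cultures against 779 ± 89.4 (SD, n = 3) in 48 h cultures, with a log2 fold change of 0.70 (standard error 0.14, limma's adjusted p 0.000782). The STAT3 gene itself, Stat3, had 27568 ± 2246 (SD, n = 3) in 12 h cultures against 22689 ± 2330.3 (SD, n = 3) in 48 h cultures, with a log2 fold change of -0.28 (standard error 0.087, limma's adjusted p 0.0135), and was singled out after its values were seen because the pathway acts through it.

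Of 9 feedback regulators other than Socs3, 1 rose and 2 fell in WT between 12 and 48 h (median -0.085), and 1 rose and 0 fell in HET. Ptpn6, a phosphatase of blood cells, had 151 ± 42.8 (SD, n = 3) in 12 h cultures against 59.6 ± 13.7 (SD, n = 3) in 48 h cultures, with a log2 fold change of -1.31 (standard error 0.33, limma's adjusted p 0.00420). Pias3, an inhibitor of STAT3, had 662 ± 82.3 (SD, n = 3) in 12 h cultures against 1001 ± 127 (SD, n = 3) in 48 h cultures, with a log2 fold change of 0.60 (standard error 0.12, limma's adjusted p 0.000670), and Socs7, a relative of Socs3, had 5870.4 ± 454 (SD, n = 3) in 12 h cultures against 4658 ± 616 (SD, n = 3) in 48 h cultures, with a log2 fold change of -0.34 (standard error 0.092, limma's adjusted p 0.00657). Among 15 measured of 17 genes known to respond to STAT3, 3 rose and 7 fell in WT, with a median of -0.48, and 2 rose and 5 fell in HET, with a median of -0.32. The largest changes were of Sprr1a, a regeneration-associated protein of injured neurons (4.52, standard error 0.62, limma's adjusted p 5.93e-05 in WT), Fos, an immediate early transcription factor (-3.06, standard error 0.36, limma's adjusted p 2.93e-05), and Timp1, an inhibitor of matrix metalloproteinases (2.69, standard error 0.42, limma's adjusted p 0.000138). Most of these genes respond to other pathways too.

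Of 15 receptors and relatives of the other cytokines, 14 were measured, and in WT between 12 and 48 h 1 rose and 3 fell (median -0.12). Ccr2, the receptor of Ccl2 on monocytes, had 59.1 ± 42.2 (SD, n = 3) in 12 h cultures against 9.87 ± 6.99 (SD, n = 3) in 48 h cultures, with a log2 fold change of -2.45 (standard error 0.69, limma's adjusted p 0.00801). Cxcr4, the receptor of Cxcl12, had 715 ± 148 (SD, n = 3) in 12 h cultures against 169 ± 22.8 (SD, n = 3) in 48 h cultures, with a log2 fold change of -2.06 (standard error 0.28, limma's adjusted p 5.17e-05), and it was the 1 gene of this list that fell in HET (-1.14, standard error 0.28, limma's adjusted p 0.0185). Il1rap, the shared chain of interleukin-1 receptors, had 663 ± 9.77 (SD, n = 3) in 12 h cultures against 1276 ± 419.7 (SD, n = 3) in 48 h cultures, with a log2 fold change of 0.88 (standard error 0.29, limma's adjusted p 0.0180). The same lists were counted at 24 h against 12 h, where 3.62% of all genes passed in WT, and 13.1% higher and 5.76% lower in HET. In WT 1 gene of the STAT3 response list had risen and no gene of the other lists passed. In HET 2 ligands, 1 co-receptor, 1 feedback regulator, 2 STAT3 response genes and 1 partner had risen, and 1 transducer and 2 STAT3 response genes had fallen. No gene of the 6 lists passed between genotypes at any time or on average without a block.

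Nearest genes by pattern were named for the 4 members whose group means spanned at least 1 on the log2 scale, Il6, Lif, Csf1 and Il1b. Likeness was the root-mean-square difference of the centred log2 values over the 18 cultures, among genes with a mean normalized count of at least 50. For Il6 they were Nxpe2 (0.26) and Pltp (0.36). For Lif they were Fblim1 (0.17), Col8a1 (0.17) and Lima1 (0.18), where Col8a1 is a collagen and the other two bind the actin cytoskeleton or its adhesions. For Csf1 they were Pcsk6 (0.19), Ntn1 (0.19) and Snai2 (0.20), which encode a secreted protease, the guidance cue netrin-1 and a transcription factor. For Il1b they were Smr2 (0.49), Klf15 (0.53) and Myo1g (0.53), farther off than the nearest genes of Il6, Lif or Csf1. Il1b itself had normalized counts from 3.36 to 48.4, so genes at its own level were left out of the search. Whether it has a closer neighbour among them was not tested.

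**Figure D4:**
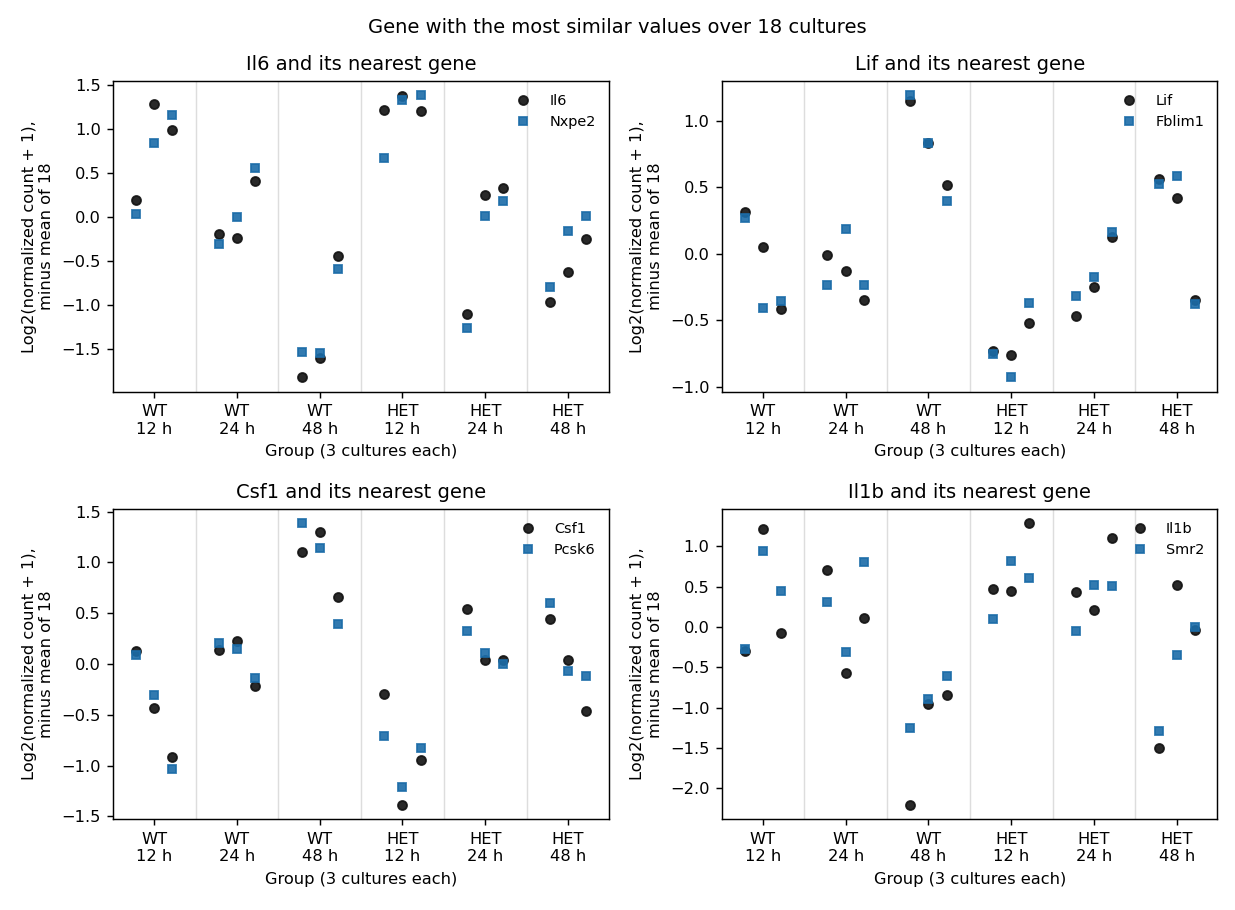
Log2(normalized count + 1) minus its mean over the 18 cultures (linear axis in log2 units) for Il6, Lif, Csf1 and Il1b, each with its nearest gene, by group with 1 point per culture. Il6 and Nxpe2 differed by a root-mean-square of 0.26, and Il1b and Smr2 by 0.49.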

How the data were processed

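RNA sequencing of 18 cultures, 3 per genotype and time, was analysed from 1 deposited table. Per the submitters' processing notes, the authors used CASAVA 1.8.2, edgeR and the genome build mm10; the aligner, the counting step and any gene filter are not given in the sources used here. The authors deposited normalized counts, a signal per gene and culture that is not whole and holds no 0, so no count test was used. A further set of deposited signal columns without a name, called the plain adjusted columns, has totals from 39465712 to 44213485. The authors' FPKM values, per the file headers, served only to compare levels between genes. The authors' deposited log2 fold changes and p-values (adjusted as FDR) are quoted only where named, and the authors' rank score was not used.

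On the log2 scale the plain adjusted columns span 15 of the 17 dimensions that 18 samples allow. So 2 directions between samples had been taken out of those columns by a step not given in the sources used here. The dimensions of the normalized counts, the values fitted, were not measured. These directions hold 19.5% of their length between groups, and fits with them as covariates, added after the data were seen, are among the alternatives. Most of the length of the 2 directions lay within groups, so part of the spread between cultures may have been removed before deposit, also from the normalized counts. The main fit makes no allowance for this, with 12 residual degrees of freedom against 10 with the directions as covariates. Its p-values may therefore be too small. Nothing states that the biological repeats came from separate animals, so p-values measure the spread left between these cultures.

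Log2(normalized count + 1) was fitted with limma 3.58.1 in R 4.3.3 with 1 coefficient per group, a mean-variance trend and 12 residual degrees of freedom. Genes needed a mean of at least 1. p-values were Benjamini-Hochberg adjusted over 17198 genes in each of 9 comparisons. The fit was tested on simulated data. Same-numbered cultures were taken as paired where every pair's correlation of deviations across genes exceeded 0.1, which held for HET against WT at 48 h (3 pairs, 0.21 to 0.46) and for no other comparison. Alternatives were the plain adjusted columns, a pseudocount of 0.1, no filter, a mean of at least 5, the replicate block and leaving out each culture.

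The members and gene lists were chosen with earlier results of these data known. All 9 members are named in every comparison. Also named are the 3 genes nearest in pattern to a member and, from each list, the 3 genes with the largest passing change from 12 to 48 h in WT, except that 2 genes these rules select are not reported here. The deposited table lists an Ensembl ID for 16529 of 17198 genes, and the IDs of all 9 members were found in GENCODE. Promoter sequences are from RefSeq, GRCm38.p6; 8 of the 9 genes matched, all but Ccl2.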

Additional observations from a re-analysis of the deposited data

How the results depend on the processing

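With another pseudocount, no filter or a mean of at least 5, all values of the 9 genes kept their direction and side of the threshold. Over all 7 alternatives other than leaving out cultures, 529 of 567 did so, 21 came to pass, 2 no longer passed and 15 changed sign. The number of genes passing moved more. On the plain adjusted columns it was 2 for HET against WT at 12 h and 1 at 48 h. The replicate block gave 17 at 12 h, 0 at 24 h (198 genes had an unadjusted p under 0.05 without it), 2120 at 48 h, 553 in the average over times, 1621 for 24 h against 12 h in WT and 5301 for 48 h against 12 h in HET. The last of these comparisons also loses HET 48 h replicate 3 under the block, as no 12 h culture has its number. Leaving out that culture alone, without the block, gave 4886. With the 2 missing directions as covariates the number was 0 at 24 h and 1 at 48 h between genotypes and 1132 for 24 h against 12 h in WT. With both, it was 19, 0 and 1953 between genotypes at 12, 24 and 48 h, 252 in the average, and 2447, 5900 and 4998 for 24 h in WT, 24 h in HET and 48 h in HET against 12 h.

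Same-numbered cultures were taken as paired at 48 h between genotypes by a rule on these same values. The labels give only a number, and WT replicate 2 with HET replicate 1 had a correlation of 0.18 at that time. The replicate block changed the calls of Csf1 and Lif there (limma adjusted p 0.00316 and 0.0473). With the missing directions added these were 0.00724 and 0.0547. Elsewhere the rule was not met (correlations of deviations of same-numbered cultures from -0.21 to 0.36). There the block brought 9 further values past the threshold, Lif and Csf1 in the genotype average, Osmr and Ccl2 at 24 h in WT, Ccl2 and Socs3 at 48 h in WT, Lif and Ccl2 at 24 h in HET and Csf1 at 48 h in HET, and ended none. The block with the missing directions moved Csf1 at 24 h in WT to 0.98 (limma adjusted p 0.00429). The calls no longer passing were Osmr at 24 h in HET on the plain adjusted columns (0.0569) and Il6st at 48 h in WT with the block and missing directions (0.0632).

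Signs changed for small differences. With the missing directions, on the log2 scale, they were Lif 0.13 and Socs3 0.047 between genotypes at 24 h, Il6st 0.028 and Il1b 0.063 at 24 h in WT, Osmr 0.015 at 48 h in HET, and Lif -0.043 and Osmr 0.049 in the difference between the genotypes' changes. With the block and missing directions they were Lif 0.12 and Csf1 -0.030 between genotypes at 24 h, Il1b 0.40 at 24 h in WT and 0.19 at 24 h in HET, and Osmr 0.033 at 48 h in WT and 0.036 in the difference. Osmr at 48 h in WT was 0.031 with the block, and Socs3 in the difference 0.0038 on the plain adjusted columns.

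Leaving out each of the 18 cultures, 1370 of 1458 values kept direction and side, 24 calls were lost, 16 gained and 48 signs changed. Counts of genes between genotypes ranged over 0 to 2 at 12 h, 0 to 2 at 24 h and 0 to 931 at 48 h (highest without WT 48 h replicate 3). Against 12 h they ranged over 0 to 1119 for 24 h in WT, 1141 to 3970 for 24 h in HET and 0 to 4886 for 48 h in HET. For 24 h in WT the count was 0 without WT 12 h replicate 2 or any 1 of WT 24 h replicates 1, 2 and 5. For 48 h in HET it was 0 without HET 12 h replicate 2 or HET 48 h replicate 1 or 2. The ranges that crossed 0 were, between genotypes at 12 h, Il6st -0.088 to 0.16 and Ccl2 -0.56 to 0.30. At 24 h they were Il6 -0.43 to 0.29, Lif -0.20 to 0.10, Socs3 -0.15 to 0.13, Csf1 -0.010 to 0.24, Ccl2 -0.30 to 0.30 and Cxcl12 -0.31 to 0.18, and in the average Ccl2 -0.022 to 0.26. Against 12 h they were Lif -0.34 to 0.020, Il6st -0.16 to 0.081 and Il1b -0.52 to 0.26 at 24 h in WT, Osmr -0.11 to 0.035 at 48 h in WT, Il1b -0.41 to 0.12 at 24 h in HET, and Osmr -0.19 to 0.081 and Ccl2 -0.17 to 0.12 at 48 h in HET. In the difference between changes they were Il6 -0.031 to 0.66, Lif -0.14 to 0.31, Osmr -0.17 to 0.10, Socs3 -0.16 to 0.15 and Cxcl12 -0.13 to 0.36. The cause was not tested for any of these. Depth is unknown, and with 3 cultures per group the low counts of Il1b and Il6 had the largest standard errors of the 9 genes.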

Other observations

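The values of 4 listed genes between genotypes at 48 h are given here. They were chosen after their values were seen, and none passed in the fit without a block. The groups did not overlap for Sprr1a, Fos and Cebpd, and overlapped for Timp1. Because of that choice, the 24.0% of all genes without overlap is no fair comparison for them. All 4 are on the STAT3 response list, of whose 15 measured genes 0 passed. Sprr1a, a protein of regenerating axons, averaged 1059.7 ± 464 (SD, n = 3) normalized counts in HET cultures against 6972 ± 5545 (SD, n = 3) in those of WT, with a log2 difference of -2.55 (standard error 0.62, limma's adjusted p 0.0532). Timp1, an inhibitor of matrix metalloproteinases, averaged 3705 ± 2248 (SD, n = 3) in HET cultures against 9079.6 ± 3666 (SD, n = 3) in those of WT (-1.42, standard error 0.42, limma's adjusted p 0.0781). In the other direction, the transcription factor Fos averaged 2186 ± 1294 (SD, n = 3) in HET cultures against 737 ± 258 (SD, n = 3) in those of WT (1.45, standard error 0.36, limma's adjusted p 0.0543), and the transcription factor Cebpd a log2 fold change of 0.98 (standard error 0.22, limma's adjusted p 0.0503).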
